A study of Mus musculus with 24 samples.

Results

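The mitosis genes examined here were 47 listed genes of the G2/M transition, the spindle, the kinetochore and condensin, out of 45706 genes in the count tables of mouse intestinal organoids. They were taken by symbol, and all 47 were matched to an Ensembl identifier in the small intestinal (SI) and the colonic (COL) table and passed the filter on low counts in both tissues. Organoids are epithelial cultures grown from crypts, here from C57BL/6N mice. The donors carried BraffloxV600E/+, Trp53LSL-R172H/+ or both alleles, together with Villin::CreERT2, a Cre that is active in intestinal epithelium only after 4-hydroxytamoxifen (4-HT). These 3 genotypes are written BRAF, p53 and BRAFp53 here. Organoids received 4-HT (on) or ethanol (off) for 24 hours, so that off organoids carried the same alleles and the same Cre without 4-HT. On organoids express BRAFV600E, a constitutively active kinase of the ERK pathway, p53R172H, a missense form of the tumour suppressor, or both. COL organoids received 3.5 µM 4-HT with RNA isolated on day 3, and SI organoids 0.5 µM with RNA isolated on day 8, so that tissue, dose and day cannot be told apart. Each of the 12 groups had 2 libraries, and a genotype in a tissue came from 1 donor culture. Genotype and donor culture can therefore not be told apart either, and p-values measure only the spread between libraries of the same culture.

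Cells make most of the RNA of many of these genes in G2 and M phase. The cyclin B and CDK1 kinase drives entry into mitosis, condensin compacts the chromosomes, the kinetochore couples them to the spindle, and the spindle checkpoint holds back the anaphase-promoting complex (APC/C) until all chromosomes are attached. Transcription of many such genes is switched by the DREAM and B-MYB–MuvB complexes, which read a short promoter element called the CHR, often beside CCAAT boxes that bind NF-Y. In the intestine, dividing cells lie in the crypt and in the buds of SI organoids. In bulk RNA, fewer mitotic cells and less RNA of these genes per cell cannot be told apart.

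COL libraries held 51.2 to 78.2 and SI libraries 44.4 to 68.2 times 1e6 counts, and the lowest count of any of the 47 genes in any library was 119 (Kif18b). Epithelial markers were present throughout, with Epcam between 396 and 720 in COL libraries and between 363 and 574 in SI libraries, in TMM-scaled counts per 1e6 (CPM). The summed level of 15 stromal, endothelial and immune markers was at most 23 CPM, and Col1a2, Col3a1, Cd3e and Adgre1 had a median of 0 in both tissues. A library and a culture stood apart. The SI BRAF on library of replicate 1 held Xist, a transcript of female cells, at 15.4 CPM (770 counts), against 0.206 to 0.437 CPM in the other 3 SI BRAF libraries and 104 to 150 CPM in the 8 SI libraries of the other genotypes. This is 12.2% of their median of 127 CPM. In COL it was at most 0.044 CPM in any library, so that for p53 and BRAFp53 a difference between tissues cannot be told apart from a difference between donors. For the 47 genes, log2 fold changes printed with their test in SI BRAF are given with and without this library. The targeted genes were read as a check of the labels, although counts per gene do not tell the alleles apart. Trp53 averaged 233 ± 15.8 CPM off and 448 ± 1.12 CPM on in COL p53, and 145 ± 0.19 CPM off and 246 ± 7.2 CPM on in SI p53, and Braf 30.1 ± 0.953 CPM off and 40.7 ± 1.9 CPM on in COL BRAF. The rise of Trp53 passed in COL p53 (edgeR adjusted p = 0.0227) and not in SI p53 (adjusted p = 0.194). Braf did not pass in COL BRAF, SI BRAF, COL BRAFp53 or SI BRAFp53 (edgeR adjusted p = 0.0595, 0.0666, 0.103 and 0.251). Trp53 rose in COL BRAFp53 and SI BRAFp53 (edgeR adjusted p = 0.000623 and 0.0236). It fell in COL BRAF and SI BRAF (edgeR adjusted p = 0.0332 and 0.00351). The COL BRAF culture held Gata4, a transcription factor of the proximal intestine, at 35.8 to 54.8 CPM, against 0.32 to 2.95 CPM in the other COL cultures and 72.9 to 109 CPM in SI, while it held the colonic marker Car1 at 1473 to 5492 CPM. Hoxb13, a marker of the distal colon, was at most 0.482 CPM in COL.

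In off organoids the 47 genes together reached 3775 to 4532 CPM in COL (median 3862, 6 libraries) and 3184 to 3684 CPM in SI (median 3472). Per kilobase of exon, Ube2c, the ubiquitin-conjugating enzyme of the APC/C, had the highest level in both tissues, with 50.9 to 59.6 CPM per kb in COL and 62.7 to 80.7 CPM per kb in SI. In COL it overlapped with its neighbours in the order, Top2a (46.3 to 60.6 CPM per kb), the topoisomerase that untangles sister chromatids, and Ccnb2 (43.9 to 55 CPM per kb), a B-type cyclin. In SI it lay above Ccnb2 (54.2 to 58.8 CPM per kb) in every off library. Kif18b, a kinesin that limits astral microtubules, had the lowest median level (1.13 to 2.47 CPM per kb in COL and 1.22 to 1.79 in SI), below Espl1 (separase) in both. Mybl2, which encodes B-MYB, followed with 1.78 to 4.14 CPM per kb in COL and 2.22 to 3.64 in SI, overlapping with Espl1 in both tissues and with Kif18b in COL.

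The promoters were examined for the CHR as a description. The genes were listed for their roles in mitosis, and many such genes carry the CHR. A high share therefore follows from the list and is no result of these data. RefSeq promoters (GRCm38.p6, 250 bases before to 50 after the start) were found for 39 of the 47 genes. The unmatched genes were Aurkb, Ccna2, Foxm1, Incenp, Kif20a, Smc4, Spc24 and Tpx2. The CHR was searched as TTTGAA or TTCGAA and the CCAAT box as CCAAT, on both strands and as exact letters, with overlapping matches counted. A CHR match lay in 31 of the 39 promoters (79.5%), against 19.4% of all 27025 promoters of that length. Within 50 bases of the start it lay in 28 (71.8%), against 5.29% of all promoters. CCAAT matched in 29 (74.4%), against 37.9%, and both words in 27 (69.2%), against 7.7%. A match is a description of the letters and not a site of binding. The windows below belong to the 6 genes, among the 33 named by rule, with a match nearest to the start. They are 30 bases in the direction of transcription, with the CHR letters in capitals (a match on the opposite strand reads TTCAAA). In this order they lie at chr1:189688067-189688096 (minus strand), chr9:70421533-70421562 (minus), chr9:83834684-83834713 (plus), chr2:127831828-127831857 (minus), chr10:69352910-69352939 (minus) and chr5:30666890-30666919 (plus).
Cenpf: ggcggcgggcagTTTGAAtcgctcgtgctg
Ccnb2: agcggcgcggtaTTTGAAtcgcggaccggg
Ttk: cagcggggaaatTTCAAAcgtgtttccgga
Bub1: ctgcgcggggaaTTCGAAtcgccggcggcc
Cdk1: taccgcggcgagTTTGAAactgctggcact
Cenpa: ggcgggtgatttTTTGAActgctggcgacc

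The arrangement of both words is shown by the 100 bases before the start of Cdk1 (chr10:69352913-69353012, minus strand) and Top2a (chr11:99024190-99024289, minus strand), chosen after their sequences were seen. The capitals mark CHR and CCAAT matches (ATTGG on the opposite strand). In Cdk1 the CHR nearest to the start lay at -15 and the nearest CCAAT at -48, and in Top2a at -23 and -58.
Cdk1: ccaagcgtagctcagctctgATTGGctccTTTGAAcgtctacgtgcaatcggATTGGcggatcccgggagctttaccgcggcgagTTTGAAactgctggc
Top2a: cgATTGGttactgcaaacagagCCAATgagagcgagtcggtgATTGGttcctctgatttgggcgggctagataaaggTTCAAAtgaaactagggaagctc

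The promoters without a CHR match in this window were those of Birc5, Ccnb1, Cenpe, Mad2l1, Mybl2, Nuf2, Nusap1 and Pttg1.

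**Figure D1:**
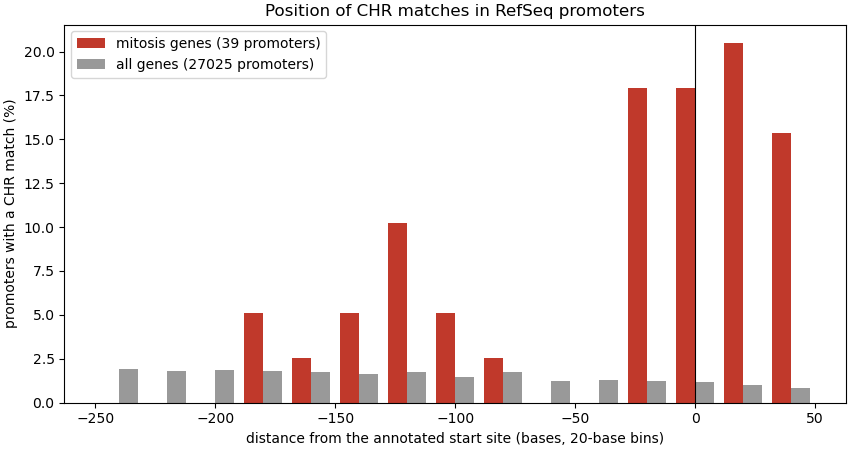
Share of promoters (y axis, %) with a CHR match by distance from the annotated start (x axis, 20-base bins), for the 39 matched mitosis genes (red) and all 27025 promoters (grey). From -30 to 50 bases, each bin holds a match in 15.4% to 20.5% of the mitosis genes and in 0.807% to 1.24% of all promoters.

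The responses to induction were determined next, with on compared with off within each culture. Upon induction of BRAFV600E alone, most of the mitosis genes fell in both tissues. In COL BRAF organoids 36 of 47 fell and 0 rose at an edgeR adjusted p under 0.05, against 9.61% of all 18972 genes tested that fell and 10.3% that rose. In SI BRAF organoids 41 of 47 fell and 0 rose, against 14.2% and 17.5% of 16856 genes. Both on libraries lay below both off libraries for 45 genes in COL BRAF (30.7% of all genes) and for 45 in SI BRAF (32.9%), and above them for 1 in COL BRAF (29.3%) and 0 in SI BRAF (30.3%). The median log2 fold change of the 47 genes was -0.69 in each of these arms, against -0.01 over all genes in COL BRAF and -0.06 in SI BRAF. Together the 47 genes reached 3819 ± 54.8 CPM in COL BRAF off and 2429 ± 43.6 CPM in COL BRAF on organoids (mean ± SD, n = 2, as for all levels with ± below). In SI BRAF they reached 3287 ± 146 CPM off and 2016 ± 603 CPM on.

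The SI BRAF on libraries differed from each other by more than those of any other group, with 2443 CPM in replicate 1, the library with Xist, and 1589 CPM in replicate 2. Without replicate 1, 44 genes fell, against 14.3% of all genes, and the median was -1.02. Without replicate 2, 22 fell, against 7.36%, and the median was -0.46. Aurka, Birc5, Ccnb1 and Mad2l1, which did not pass with all libraries, passed without replicate 1, and Mybl2 lost its call. Without replicate 2, 19 genes lost theirs, namely Cdk1, Mybl2, Plk1, Tpx2, Cdc20, Espl1, Bub1, Cdca8, Kif20a, Kif23, Kif2c, Kif4, Anln, Hmmr, Nuf2, Ndc80, Spc25, Ncapg and Smc2. Without SI BRAF off replicate 2, 26 fell, against 8.42% of all genes. The part of the Xist-bearing RNA in these values was not tested. In COL BRAF the count was 21 without on replicate 1, against 4.38% of all genes. The summed stromal, endothelial and immune markers were 17.9 and 18.7 CPM in the COL BRAF on libraries and 8.39 and 9.09 CPM in the off libraries, and their part in the COL BRAF result was not tested. In SI BRAF these sums were 5.61 and 6.74 CPM on and 3.65 and 4.26 CPM off, and their part was not tested either. Of 8 epithelial markers 6 rose in COL BRAF and 6 in SI BRAF. Their summed level was 11072 to 11693 CPM off and 26767 to 28627 CPM on in COL BRAF, and 9716 to 9751 CPM off and 17711 to 19495 CPM on in SI BRAF, and the part of this rise in the result was not tested.

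**Figure D2:**
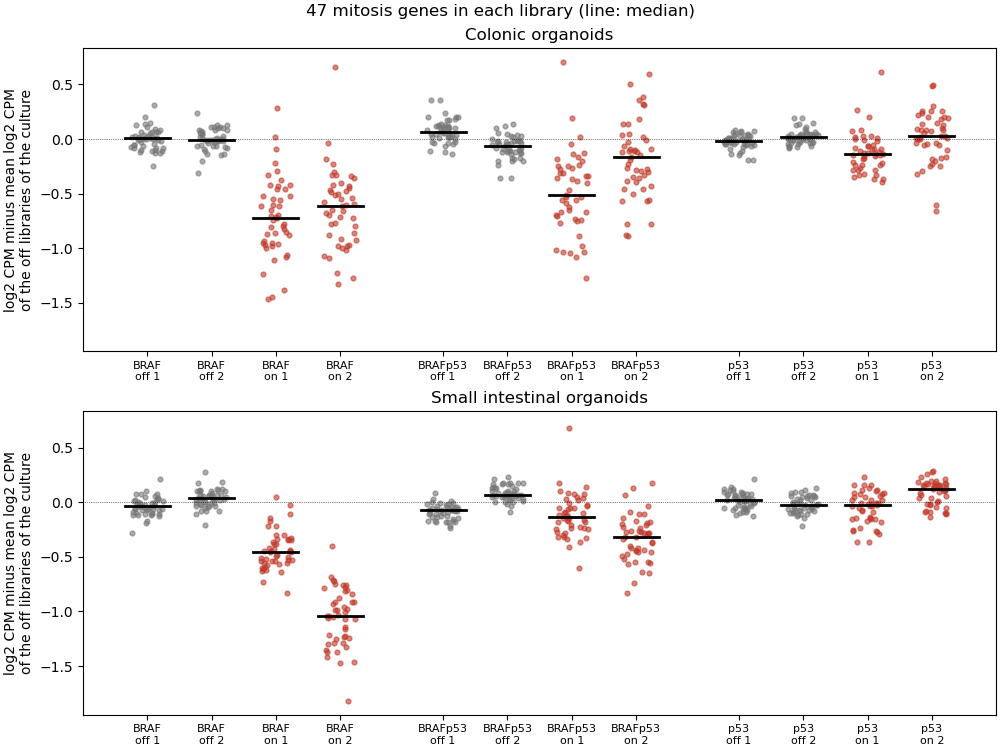
Each point is 1 of the 47 mitosis genes in 1 library, as log2 CPM minus the mean log2 CPM of the 2 off libraries of its culture (y axis), for off (grey) and on (red) libraries of each genotype. The black lines are library medians. They lie at -0.72 and -0.62 in COL BRAF on, -0.51 and -0.17 in COL BRAFp53 on, -0.45 and -1.04 in SI BRAF on, and -0.13 and -0.31 in SI BRAFp53 on.

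Both proliferation markers fell in COL BRAF and in SI BRAF. Mki67, which coats mitotic chromosomes, stood at 324 and 363 CPM in COL BRAF off and at 265 and 247 CPM in on libraries (-0.42 on the log2 scale, SE 0.10, edgeR adjusted p = 0.0114). In SI BRAF it stood at 218 and 252 CPM off and at 162 and 139 CPM on (-0.64 on the log2 scale, SE 0.12, edgeR adjusted p = 0.000912, and -0.74 without on replicate 1 or -0.54 without on replicate 2). The on and off libraries overlapped in neither tissue. Top2a was at 429 and 417 CPM in COL BRAF off and 256 and 248 CPM in on libraries (-0.75 on the log2 scale, SE 0.11, edgeR adjusted p = 0.000752). In SI BRAF the off libraries held 267 and 307 CPM and the on libraries 202 and 129 CPM (-0.79 on the log2 scale, SE 0.17, edgeR adjusted p = 0.00366, and -1.13 without on replicate 1 or -0.51 without on replicate 2), again without overlap.

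Of the 7 genes for cyclins, CDK1 and transcription factors, 4 fell in COL BRAF and 6 in SI BRAF. Ccnb2 stood at 78.4 and 77.7 CPM in COL BRAF off libraries and at 39 and 42.9 CPM in on libraries (-0.93 on the log2 scale, SE 0.12, edgeR adjusted p = 0.000349). In SI BRAF these levels were 83.2 and 83 CPM off and 54.9 and 30 CPM on (-0.97 on the log2 scale, SE 0.21, edgeR adjusted p = 0.00329, and -1.45 without on replicate 1 or -0.60 without on replicate 2). Cdk1, the kinase of mitotic entry, whose promoter is shown above, had 120.5 and 118 CPM in COL BRAF off and 62.4 and 73.8 CPM in on libraries (-0.81 on the log2 scale, SE 0.15, edgeR adjusted p = 0.0032). All on libraries of these genes lay below the off libraries of their culture. In SI BRAF Cdk1 had 136 and 130.3 CPM off and 102 and 51.4 CPM on (-0.79 on the log2 scale, SE 0.23, edgeR adjusted p = 0.0182, and -1.36 without on replicate 1 or -0.39 without on replicate 2), also without overlap.

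Ccnb1, the other B-type cyclin, fell in COL BRAF, with 118 and 116 CPM in off and 72.2 and 68.3 CPM in on libraries (-0.74 on the log2 scale, SE 0.14, edgeR adjusted p = 0.00396). In SI BRAF its on libraries were far apart, at 103 and 49.4 CPM against 123 and 111 CPM in off libraries, and the difference did not pass (-0.61 on the log2 scale, SE 0.24, edgeR adjusted p = 0.0689, and -1.22 without on replicate 1 or -0.18 without on replicate 2). Without SI BRAF on replicate 1 it passed (edgeR adjusted p = 4.67e-05), and without on replicate 2 it did not (edgeR adjusted p = 0.439).

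Ccna2 (cyclin A2) and Foxm1, a transcription factor of G2/M genes, fell in SI BRAF and did not pass in COL BRAF. Ccna2 had 47.7 and 46.4 CPM in SI BRAF off and 31.2 and 22.8 CPM in on libraries (-0.80 on the log2 scale, SE 0.16, edgeR adjusted p = 0.0021, and -1.02 without on replicate 1 or -0.60 without on replicate 2). In COL BRAF it had 39.8 and 43.1 CPM off and 38.8 and 26.4 CPM on (-0.35 on the log2 scale, SE 0.20, edgeR adjusted p = 0.259). Foxm1 had 23.6 and 26 CPM in SI BRAF off and 16.6 and 11.8 CPM in on libraries (-0.80 on the log2 scale, SE 0.17, edgeR adjusted p = 0.00318, and -1.05 without on replicate 1 or -0.58 without on replicate 2). The SI groups did not overlap for either gene, whereas the COL BRAF on libraries of Foxm1 (21 and 15.5 CPM) overlapped with its off libraries (22.4 and 19.1 CPM). The difference of the tissues in the BRAF response did not pass for Ccna2 or Foxm1 (joint edgeR fit, adjusted p = 0.4 and 0.213).

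Mybl2 (ENSMUSG00000017861, GRCm38 chromosome 2, 163054687 to 163084688, plus strand) stood apart from the other genes in COL. In COL BRAF it had 18.5 and 15.4 CPM in off and 20.6 and 26.7 CPM in on libraries, and was the 1 gene of 47 whose on libraries both lay above the off libraries there (0.48 on the log2 scale, SE 0.20, edgeR adjusted p = 0.109). In SI BRAF it had 13.8 and 13.1 CPM off and 9.4 and 8.39 CPM on, without overlap (-0.60 on the log2 scale, SE 0.19, edgeR adjusted p = 0.0302, and -0.66 without on replicate 1 or -0.52 without on replicate 2). This SI call did not pass with any of the 4 libraries left out (edgeR adjusted p = 0.0525 to 0.143) or in limma-voom (adjusted p = 0.0512). The COL response minus the SI response was 1.04 on the log2 scale (SE 0.28, joint edgeR fit, adjusted p = 0.0236). Mybl2 was the 1 gene of 47 whose BRAF response differed between tissues, against 3.31% of 19673 genes with a higher and 7.4% with a lower response in COL. This count was near that background. DESeq2 gave 1.03 (adjusted p = 0.00564). Without the Xist-bearing library the difference was 1.11 (edgeR adjusted p = 0.0431, against 2.81% of all genes higher and 5.76% lower). It did not pass without COL BRAF off replicate 2, COL BRAF on replicate 2, either SI BRAF off library or SI BRAF on replicate 2 (0.97, edgeR adjusted p = 0.0744 for the last).

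**Figure D3:**
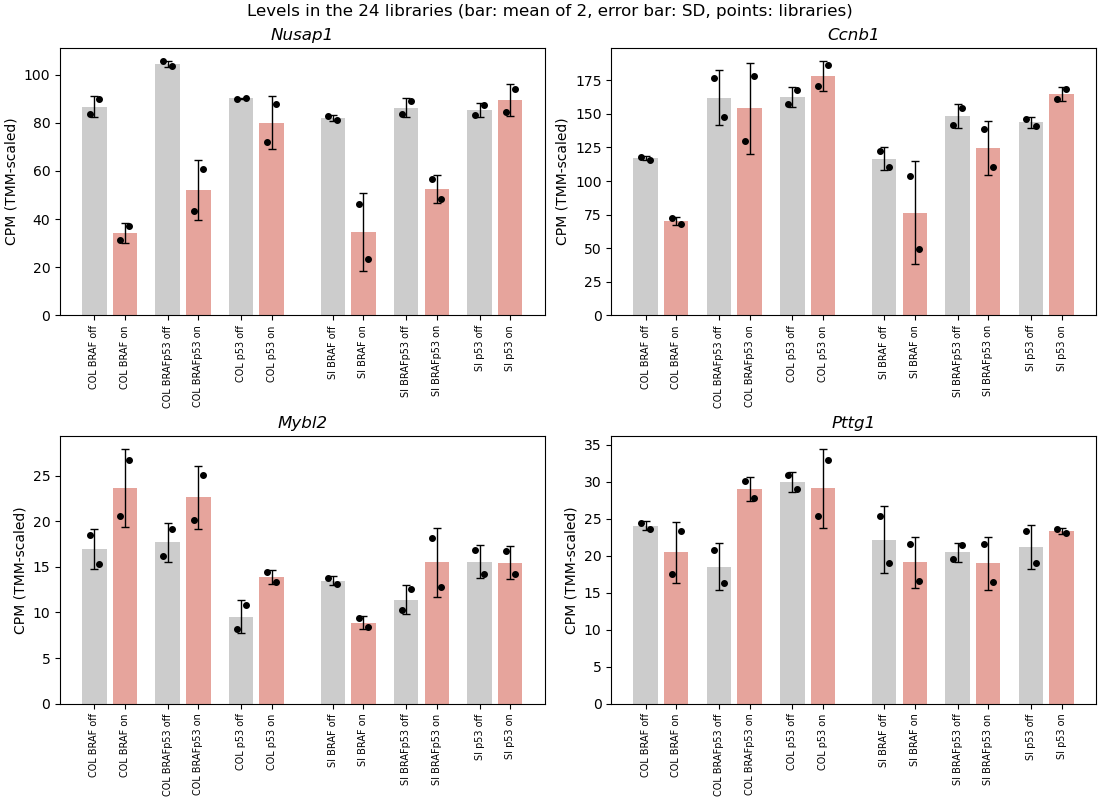
Levels of Nusap1, Ccnb1, Mybl2 and Pttg1 in the 12 groups (y axis, CPM scaled by TMM), with bars for the mean of 2 libraries, error bars for the SD and points for the libraries, off in grey and on in red. Nusap1 is lower in all 4 on groups with BRAFV600E than in their off groups. Mybl2 is at 23.6 ± 4.3 in COL BRAF on against 16.9 ± 2.2 in off, and at 8.89 ± 0.712 in SI BRAF on against 13.5 ± 0.494 in off.

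Of the 4 genes for the APC/C and sister separation, 3 fell in each BRAF arm, namely Cdc20, the APC/C activator, Ube2c and Espl1. Cdc20 had 43.1 and 41.6 CPM in COL BRAF off and 25.3 and 32.1 CPM in on libraries (-0.56 on the log2 scale, SE 0.15, edgeR adjusted p = 0.0206), without overlap. Ube2c averaged 147 ± 4.97 CPM off and 96.7 ± 0.768 CPM on in COL BRAF, and 173 ± 14.5 CPM off and 96 ± 35.7 CPM on in SI BRAF (-0.85 on the log2 scale, SE 0.20, edgeR adjusted p = 0.00503, and -1.27 without on replicate 1 or -0.52 without on replicate 2). Pttg1, which encodes securin, the inhibitor of separase, did not pass in COL BRAF (-0.23 on the log2 scale, SE 0.18, edgeR adjusted p = 0.419) or in SI BRAF (-0.21 on the log2 scale, SE 0.19, edgeR adjusted p = 0.431, and -0.39 without on replicate 1 or -0.05 without on replicate 2).

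The 4 spindle checkpoint genes all fell in COL BRAF, and 3 of them in SI BRAF. Bub1b, a checkpoint protein related to the kinase BUB1, had 77.9 and 77.2 CPM in COL BRAF off and 39.4 and 32.2 CPM in on libraries (-1.12 on the log2 scale, SE 0.16, edgeR adjusted p = 0.000546), a 2.17-fold lower level. In SI BRAF it had 52.2 and 56.9 CPM off and 38.9 and 21.8 CPM on (-0.84 on the log2 scale, SE 0.20, edgeR adjusted p = 0.00667, and -1.31 without on replicate 1 or -0.49 without on replicate 2). Both groups of on libraries lay below their off libraries. Ttk, the checkpoint kinase also called MPS1, had 23.8 and 27.8 CPM in COL BRAF off and 14 and 14 CPM in on libraries (-0.88 on the log2 scale, SE 0.17, edgeR adjusted p = 0.00389). In SI BRAF its off libraries held 20.4 and 18.4 CPM and its on libraries 12.6 and 7.9 CPM (-0.91 on the log2 scale, SE 0.21, edgeR adjusted p = 0.00457, and -1.28 without on replicate 1 or -0.63 without on replicate 2). Mad2l1, an inhibitor of APC/C with CDC20, fell in COL BRAF (-0.94 on the log2 scale, SE 0.19, edgeR adjusted p = 0.005) and did not pass in SI BRAF (-0.48 on the log2 scale, SE 0.22, edgeR adjusted p = 0.123, and -0.96 without on replicate 1 or -0.11 without on replicate 2).

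The mitotic kinases Plk1 and Aurka and the Aurora A activator Tpx2 fell in COL BRAF, and Plk1 and Tpx2 in SI BRAF. Plk1 had 94.6 and 85.9 CPM in COL BRAF off and 59.3 and 61.7 CPM in on libraries (-0.58 on the log2 scale, SE 0.16, edgeR adjusted p = 0.0252). In SI BRAF it had a wider error and depended on the on library (-0.58 on the log2 scale, SE 0.20, edgeR adjusted p = 0.0416, and -1.03 without on replicate 1 or -0.23 without on replicate 2). Aurka, the kinase of the spindle poles, had 69.5 and 73.8 CPM in COL BRAF off and 43.8 and 43.5 CPM in on libraries (-0.72 on the log2 scale, SE 0.16, edgeR adjusted p = 0.00851). In SI BRAF its on libraries (71.3 and 33.6 CPM) lay 1 above (replicate 1, with Xist) and 1 below the off libraries (67.8 and 70.1 CPM), and the difference did not pass (-0.39 on the log2 scale, SE 0.25, edgeR adjusted p = 0.263, and -1.02 without on replicate 1 or 0.04 without on replicate 2). Of the chromosomal passenger complex, which corrects attachments, 3 of 4 genes fell in each arm, Aurkb and Cdca8 in both, Birc5 in COL BRAF and Incenp in SI BRAF. Aurkb, its kinase, averaged 81.6 ± 6.11 CPM off and 48.2 ± 4.68 CPM on in COL BRAF, and 61.4 ± 0.207 CPM off and 35.2 ± 14.1 CPM on in SI BRAF (-0.80 on the log2 scale, SE 0.20, edgeR adjusted p = 0.00741, and -1.26 without on replicate 1 or -0.45 without on replicate 2).

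Of the 6 kinesins, 3 fell in COL BRAF and 5 in SI BRAF. Kif20a, a kinesin of the central spindle, had 50.2 and 41.1 CPM in COL BRAF off and 17.4 and 21.6 CPM in on libraries (-1.23 on the log2 scale, SE 0.22, edgeR adjusted p = 0.00265). Its SI BRAF libraries held 29.4 and 29.7 CPM off and 23.5 and 10.7 CPM on (-0.78 on the log2 scale, SE 0.28, edgeR adjusted p = 0.0487, and -1.44 without on replicate 1 or -0.34 without on replicate 2). The on libraries lay below the off libraries in both tissues, with the Xist-bearing library nearer to them. Kif2c, which depolymerises microtubules at kinetochores, was 2.29-fold lower in COL BRAF on (19.5 ± 2.54 CPM) than off (44.6 ± 2.93 CPM). Kif18b passed in neither arm (edgeR adjusted p = 0.197 in COL and 0.0547 in SI).

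Nusap1, which bundles spindle microtubules, had the most negative log2 fold change of the 47 genes in COL BRAF, SI BRAF, COL BRAFp53 and SI BRAFp53. In COL BRAF it was within the error of Kif20a, in COL BRAFp53 within that of Ttk, and in SI BRAFp53 it did not pass. The gene is ENSMUSG00000027306 (GRCm38 chromosome 2, 119618298 to 119651244, plus strand). It had 83.7 and 89.7 CPM in COL BRAF off and 31.3 and 37.1 CPM in on libraries (-1.34 on the log2 scale, SE 0.16, edgeR adjusted p = 0.000207), a 2.54-fold lower level. In SI BRAF it had 82.8 and 81 CPM off and 46.2 and 23.2 CPM on (-1.24 on the log2 scale, SE 0.22, edgeR adjusted p = 0.000944, and -1.80 without on replicate 1 or -0.83 without on replicate 2). The groups overlapped in neither tissue. Of the 5 genes for spindle and cytokinesis, Prc1 (the midzone bundler) and Ect2 (an activator of RhoA in cytokinesis) also fell in both arms, and Hmmr and Anln passed in SI BRAF and not in COL BRAF. Anln (anillin) averaged 27.1 ± 3.18 CPM off and 17.2 ± 5.86 CPM on in SI BRAF (-0.66 on the log2 scale, SE 0.20, edgeR adjusted p = 0.0255, and -1.04 without on replicate 1 or -0.36 without on replicate 2), with -0.31 on the log2 scale in COL BRAF (edgeR adjusted p = 0.0754).

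Of the 8 centromere and kinetochore genes, 7 fell in COL BRAF and 8 in SI BRAF. The NDC80 complex, which binds the ends of microtubules, fell in all 4 subunits in both arms, of which Spc24 alone kept its call in SI BRAF without on replicate 2. Its subunit Spc25 had 44.6 and 43.4 CPM in COL BRAF off and 16.1 and 22.3 CPM in on libraries (-1.20 on the log2 scale, SE 0.21, edgeR adjusted p = 0.00219). Spc24 had 52.2 and 48 CPM in COL BRAF off and 23.2 and 23.5 CPM in on libraries (-1.10 on the log2 scale, SE 0.15, edgeR adjusted p = 0.000446). In SI BRAF, Spc24 had 52.3 and 62.3 CPM off and 34.5 and 24.1 CPM on (-0.97 on the log2 scale, SE 0.16, edgeR adjusted p = 0.000584, and -1.23 without on replicate 1 or -0.74 without on replicate 2). On and off libraries of these subunits did not overlap. Nuf2 changed by -1.07 in COL BRAF and -0.79 in SI BRAF on the log2 scale, and Ndc80 itself by -0.78 and -0.88 (edgeR adjusted p = 0.0427 and 0.00891). Without on replicate 1 or on replicate 2 the SI BRAF values were -1.24 or -0.46 for Nuf2 and -1.33 or -0.54 for Ndc80. Knl1, the scaffold that binds NDC80 and checkpoint proteins, averaged 40.5 ± 9.54 CPM off and 25.2 ± 3.25 CPM on in COL BRAF. Cenpa, the histone H3 variant of the centromere, fell in SI BRAF, with 74.3 and 79.6 CPM off and 53.1 and 38.3 CPM on (-0.75 on the log2 scale, SE 0.15, edgeR adjusted p = 0.00157, and -0.99 without on replicate 1 or -0.54 without on replicate 2). In COL BRAF its on libraries (53.9 and 57.5 CPM) also lay below its off libraries (67 and 78.4 CPM), but the difference did not pass (-0.38 on the log2 scale, SE 0.14, edgeR adjusted p = 0.0663).

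All 4 condensin genes fell in both arms. Ncapd2, a subunit of condensin I, had 130.1 and 108 CPM in COL BRAF off and 60.4 and 68.3 CPM in on libraries (-0.89 on the log2 scale, SE 0.12, edgeR adjusted p = 0.000407). The SI BRAF libraries held 83.9 and 109 CPM off and 64.7 and 35.7 CPM on (-0.94 on the log2 scale, SE 0.22, edgeR adjusted p = 0.00487, and -1.41 without on replicate 1 or -0.58 without on replicate 2). The groups did not overlap. Ncapg, another subunit of condensin I, averaged 46.7 ± 0.599 CPM off and 23.8 ± 0.479 CPM on in COL BRAF. Smc2, a core ATPase shared by both condensins, fell in COL BRAF (-0.65 on the log2 scale, SE 0.14, edgeR adjusted p = 0.00665) and in SI BRAF (-0.52 on the log2 scale, SE 0.15, edgeR adjusted p = 0.0177, and -0.70 without on replicate 1 or -0.34 without on replicate 2).

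The calls of COL BRAF and SI BRAF shared 32 genes, which were 88.9% of the 36 in COL and 78% of the 41 in SI. Aurka, Birc5, Ccnb1 and Mad2l1 passed in COL and not in SI, and Anln, Ccna2, Cenpa, Foxm1, Hmmr, Incenp, Kif23, Kif4 and Mybl2 in SI and not in COL. The former list rests on the Xist-bearing library, without which all 4 of its genes passed in SI BRAF. The latter list depends on the libraries too, since Anln, Hmmr, Kif23, Kif4 and Mybl2 lost the SI BRAF call without on replicate 2. Apart from Mybl2, the difference of the tissues passed for none of these genes in the joint edgeR fit. Over the 47 genes the log2 fold changes of both arms had a Pearson r of 0.49 and a Spearman rho of 0.47, as a description across genes, which share their libraries. Genes with a CHR match had a median of -0.69 (31 genes) and those without it -0.62 (8 genes) in COL BRAF, and -0.68 and -0.60 in SI BRAF. Nusap1, with the most negative value, had no match in the window.

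**Figure D4:**
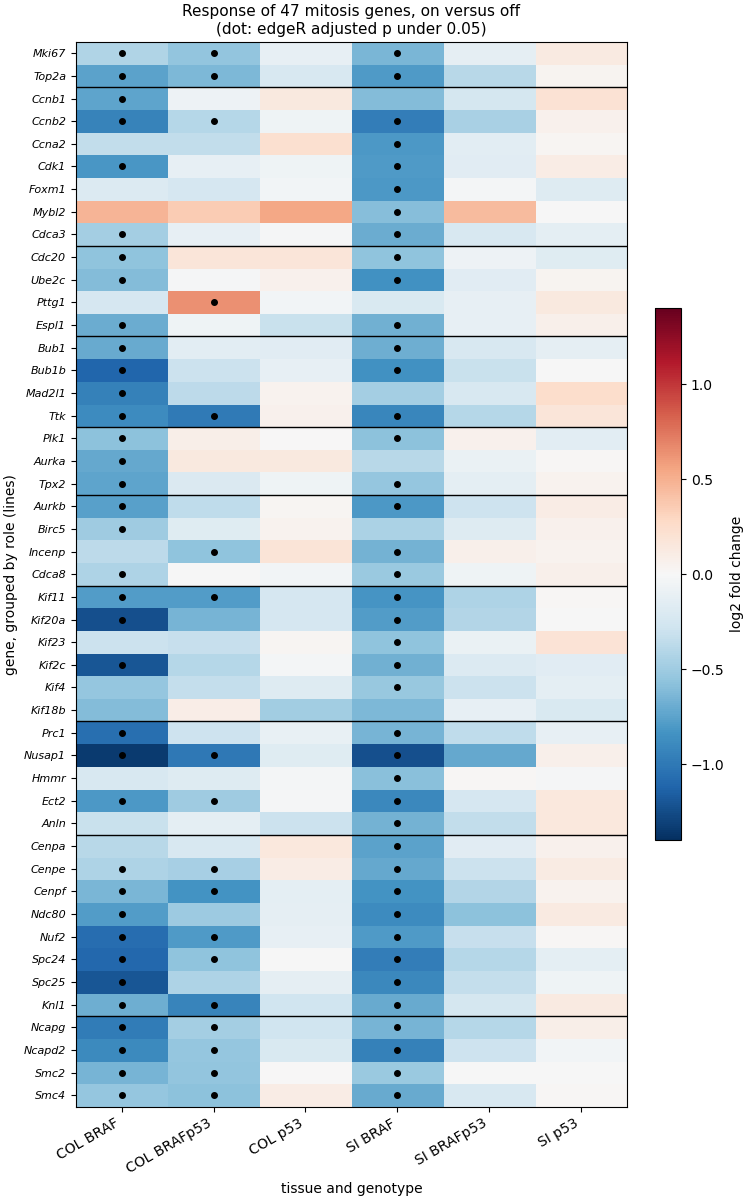
Log2 fold change of on against off (colour, blue lower and red higher) for the 47 genes (rows, grouped by role) in the 6 arms (columns), with a dot where the edgeR adjusted p was under 0.05. The columns hold 36 dots in COL BRAF, 18 in COL BRAFp53 and 41 in SI BRAF, and no dot in COL p53, SI BRAFp53 and SI p53.

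With p53R172H induced together with BRAFV600E, fewer of the genes passed. In COL BRAFp53 organoids 17 of 47 fell and 1 rose, against 7.76% of all genes that fell and 9.95% that rose, with a median log2 fold change of -0.35 (-0.04 over all genes). Both on libraries lay below both off libraries for 29 genes (29.4% of all genes) and above them for 2 (27.6%). Together the 47 genes reached 4327 ± 291 CPM off and 3355 ± 480 CPM on. The count depended on the library. Without COL BRAFp53 on replicate 1 (3015 CPM), 6 fell (Cenpf, Knl1, Mki67, Nusap1, Top2a and Ttk, against 3.1% of all genes) and the median was -0.15. Without on replicate 2 (3694 CPM), 21 fell, against 4.17%, and the median was -0.52. Without off replicate 1, 10 fell, against 5.14%, and without off replicate 2, 11 fell, against 4.44%. When only the 4 libraries of this culture were fitted, 10 fell, against 5.99%. The summed stromal, endothelial and immune markers were 19.9 and 23 CPM in the on libraries and 9.34 and 10.5 CPM in the off libraries, and those of 8 epithelial markers, of which 6 rose, were 11391 and 11844 CPM off and at least 26251 CPM on. The part of either in the COL BRAFp53 result was not tested.

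The genes that fell in COL BRAFp53 were 4 of 4 condensin genes, 5 of 8 centromere and kinetochore genes, 2 of 2 proliferation markers, 2 of 5 genes for spindle and cytokinesis, 1 of 7 cyclin, CDK1 and transcription factor genes (Ccnb2), 1 of 4 spindle checkpoint genes (Ttk), 1 of 4 genes of the chromosomal passenger complex (Incenp), 1 of 6 kinesins (Kif11), 0 of 4 genes of the APC/C and chromosome separation and 0 of 3 mitotic kinases. Of those 3, 0 had an unadjusted p under 0.05. Nusap1 had 105 and 104 CPM in off and 43.3 and 60.8 CPM in on libraries (-1.01 on the log2 scale, SE 0.16, edgeR adjusted p = 0.00136). Ttk had 35.9 and 27.9 CPM off and 15 and 17.1 CPM on (-0.99 on the log2 scale, SE 0.17, edgeR adjusted p = 0.00231). Knl1 had 51.7 and 48.6 CPM off and 25.5 and 27.3 CPM on (-0.93 on the log2 scale, SE 0.16, edgeR adjusted p = 0.00247). None of these genes overlapped between on and off, and Nusap1 and Ttk differed by less than their errors. Without on replicate 1, Nusap1 had -0.76, Ttk -0.88 and Knl1 -0.86. Cenpf, a large kinetochore protein whose CHR window is shown above, had 141 and 125 CPM off and 72 and 77.3 CPM on (-0.84 on the log2 scale, SE 0.12, edgeR adjusted p = 0.000964).

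Ccnb1 and Cdk1 overlapped between on and off in COL BRAFp53. Ccnb1 was at 177 and 147 CPM in off and 130.0 and 178 CPM in on libraries (-0.07 on the log2 scale, SE 0.14, edgeR adjusted p = 0.772). Cdk1 was at 156 and 122 CPM off and 115 and 141 CPM on (-0.12 on the log2 scale, SE 0.15, edgeR adjusted p = 0.647). Plk1 (113 and 97.6 CPM off, 89.4 and 134 CPM on) and Aurka (73.9 and 62.9 CPM off, 61.8 and 88.8 CPM on) overlapped as well. For each of these 4 genes, on replicate 1 lay below both off libraries and on replicate 2 above at least 1 of them.

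Pttg1 was the gene that rose in COL BRAFp53 (ENSMUSG00000020415, GRCm38 chromosome 11, 43420250 to 43426251, minus strand). It had 20.8 and 16.3 CPM in off and 30.1 and 27.8 CPM in on libraries, which did not overlap (0.64 on the log2 scale, SE 0.18, edgeR adjusted p = 0.0285), a 1.56-fold higher level. The call was lost with library totals in place of TMM (0.49 on the log2 scale, edgeR adjusted p = 0.0883), with only the 4 libraries of the culture (adjusted p = 0.0514) and without either on library or off replicate 2 (adjusted p = 0.0644 to 0.182). In COL p53, Pttg1 had 30.9 and 29 CPM off and 25.4 and 32.9 CPM on, which overlapped.

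In SI BRAFp53 organoids 0 of 47 genes passed in edgeR, against 4.53% of all genes that fell and 6.98% that rose, while 10 had an unadjusted p under 0.05 (24.6% of all genes). DESeq2 called 2 lower, against 5.91% of all genes, and limma-voom 1, against 5.22%, so that none of these counts stood above the background. The median log2 fold change was -0.23 (-0.03 over all genes), and 43 genes were below 0. Both on libraries lay below both off libraries for 28 genes (28.2% of all genes) and above them for 1 (26.6%). Nusap1 had 83.4 and 89 CPM in off and 56.7 and 48.3 CPM in on libraries (-0.72 on the log2 scale, SE 0.22, edgeR adjusted p = 0.0527). Together the 47 genes reached 3492 ± 271 CPM off and 2999 ± 297 CPM on. The summed stromal, endothelial and immune markers were 8.56 and 9.22 CPM on and 3.82 and 5.34 CPM off, 5 of 8 epithelial markers rose, and the part of either was not tested.

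Induction of p53R172H alone gave no call. In COL p53 organoids 0 of 47 genes passed in edgeR, DESeq2 and limma-voom, against 0.111% of all genes that fell and 0.0316% that rose in edgeR, and 3 had an unadjusted p under 0.05 (8.34% of all genes). In SI p53 organoids 0 passed with each tool, against 0% of all genes in edgeR, and 0 had an unadjusted p under 0.05 (5.18% of all genes). The medians were -0.04 in COL p53 and 0.04 in SI p53. Both on libraries lay below both off libraries for 12 genes in COL p53 (19.6% of all genes) and 5 in SI p53 (17.4%), and above them for 4 (19.4%) and 11 (18.1%). Together the 47 genes reached 3820 ± 64.1 CPM off and 3677 ± 286 CPM on in COL p53, and 3596 ± 61.9 CPM off and 3677 ± 240 CPM on in SI p53. Mybl2 had the highest value in COL p53, at 8.23 and 10.8 CPM off and 14.4 and 13.3 CPM on (0.54 on the log2 scale, SE 0.20, edgeR adjusted p = 0.441).

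Since a call in BRAF organoids and none in BRAFp53 organoids is no test of their difference, the difference of the responses was tested within each tissue. In COL, 0 of 47 genes differed in edgeR, against 0.532% of all genes with a higher and 0.374% with a lower response in BRAFp53 (0.907% in all), and 18 had an unadjusted p under 0.05 (19% of all genes). The median difference was 0.35 (-0.03 over all genes), with 0.59 without COL BRAFp53 on replicate 1 and 0.19 without on replicate 2. DESeq2 called 8, against 4.32% of all genes with a higher response. Limma-voom called 0, against 140 of 18972 genes with a higher and 89 with a lower response. Without COL BRAFp53 on replicate 1, edgeR called 3 with a higher response, against 0.384% of all genes. Aurka had a difference of 0.85 (SE 0.23, edgeR adjusted p = 0.085), Cdk1 of 0.69 (SE 0.21, adjusted p = 0.119) and Ccnb1 of 0.66 (SE 0.20, adjusted p = 0.117). Mki67 had -0.12 (SE 0.14) and Knl1 -0.24 (SE 0.23).

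In SI the difference was above 0 for all 47 genes, with a median of 0.48 (0.03 over all genes). In edgeR 1 gene passed, near the background, against 1.93% of all genes with a higher and 6.28% with a lower response in BRAFp53 (8.2% in all). DESeq2 called 7 with a higher response, against 3.32% of all genes, limma-voom called 1, against 1.97%, and 16 had an unadjusted p under 0.05 in edgeR (22.5% of all genes). The gene called in edgeR was Mybl2, which had 10.3 and 12.5 CPM in SI BRAFp53 off and 18.2 and 12.8 CPM in on libraries (0.44 on the log2 scale, against -0.60 in SI BRAF). The difference was 1.04 (SE 0.27, edgeR adjusted p = 0.0314), and 1.02 in DESeq2 (adjusted p = 0.00572). It did not pass without either SI BRAF off library, SI BRAF on replicate 2, SI BRAFp53 off replicate 1 or SI BRAFp53 on replicate 1.

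Without the Xist-bearing library, SI BRAF on replicate 1, 38 genes passed in this comparison, all with a higher response in BRAFp53, against 5.19% of all genes with a higher and 6.63% with a lower response. Cdk1 then had a difference of 1.21 (SE 0.20, edgeR adjusted p = 0.00186), Plk1 of 1.10 (adjusted p = 0.00213) and Mybl2 of 1.12 (adjusted p = 0.0294). Without SI BRAF on replicate 2 instead, Cdk1 had 0.25, and the median difference was 0.24, against 0.80 without on replicate 1. The 38 calls therefore depended on the on library that was kept. In each of these fits the remaining on library stood alone and was assumed to vary like the other groups.

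**Figure D5:**
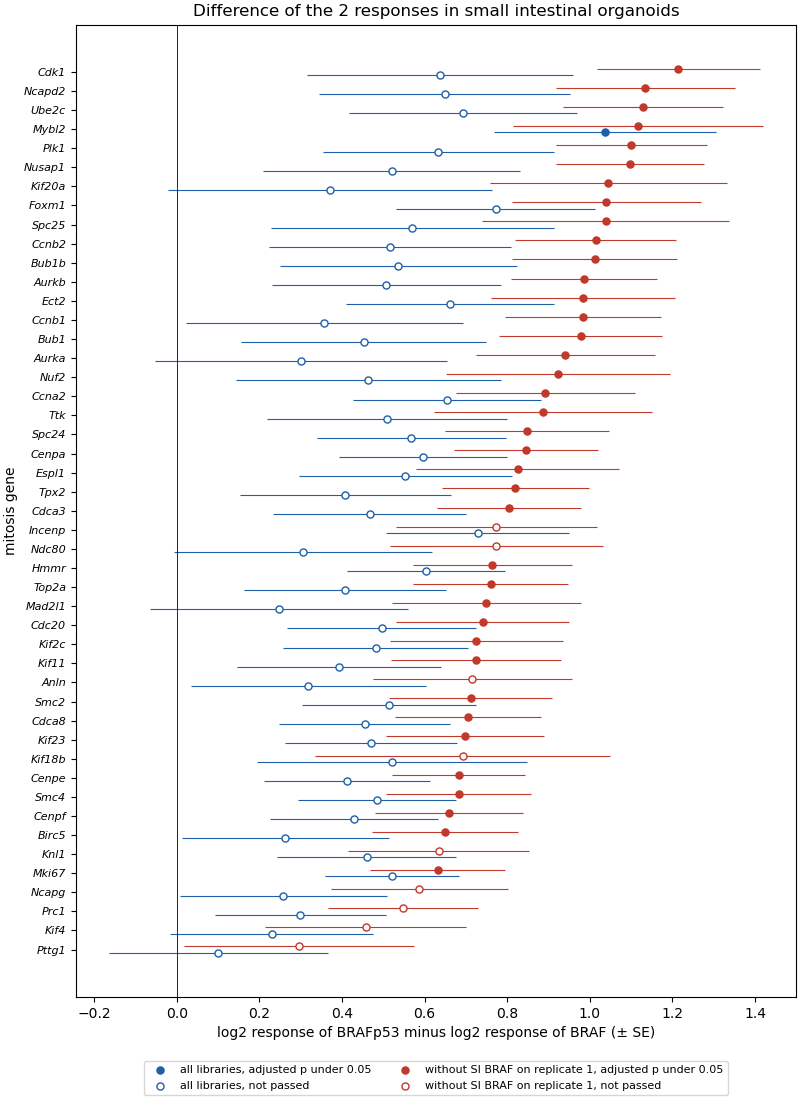
Response of SI BRAFp53 minus response of SI BRAF (x axis, log2, ± SE) for the 47 genes (y axis), with all 12 SI libraries (blue) and without SI BRAF on replicate 1 (red). Filled points passed an edgeR adjusted p under 0.05, which 1 gene did with all libraries and 38 without that library.

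Between tissues, the BRAFp53 response differed for 0 of 47 genes in the joint edgeR fit, against 1.39% of all genes with a higher and 2.13% with a lower response in COL, while 7 had an unadjusted p under 0.05 (17.8% of all genes) and DESeq2 called 2 with a lower response in COL (3.61%). The p53 response differed for 0, against 0.0102% and 0.107% of all genes, with 0 at an unadjusted p under 0.05 (7.79% of all genes) and 0 in DESeq2. The largest differences in BRAFp53 were those of Knl1 (-0.73, SE 0.22, edgeR adjusted p = 0.0815) and Pttg1 (0.71, SE 0.28, adjusted p = 0.168).

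Other genes of the cell cycle were read beside the 47 genes. Of 66 other mitosis genes, 40 fell in COL BRAF, 49 in SI BRAF, 25 in COL BRAFp53 and 3 in SI BRAFp53, against 9.61%, 14.2%, 7.76% and 4.53% of all genes, and 0 rose in these arms. The 3 of 66 in SI BRAFp53 were near that background. Their medians were -0.68, -0.70, -0.42 and -0.26. Of 36 DNA replication genes, which are used in S phase, 24 fell in COL BRAF, 23 in SI BRAF, 8 in COL BRAFp53 and 0 in SI BRAFp53 (4 there with an unadjusted p under 0.05 in edgeR, against 24.6% of all genes), and 1 rose, in COL BRAFp53. Their medians were -0.75, -0.74, -0.43 and -0.21, beside -0.69, -0.69, -0.35 and -0.23 for the 47 mitosis genes. In the p53 arms 0 genes of either list passed in edgeR, with 2 genes of each list in COL and 1 of each in SI at an unadjusted p under 0.05, against 8.34% and 5.18% of all genes.

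Among 15 genes for repressors of the cell cycle and the MuvB core, Cdkn1a and E2f8 passed in all 4 arms with BRAFV600E. Cdkn1a, which encodes the CDK inhibitor p21 and is a target of p53, averaged 336 ± 6.24 CPM off and 682 ± 38.3 CPM on in COL BRAF (1.02 on the log2 scale, edgeR adjusted p = 0.00152). In SI BRAF it averaged 194 ± 6.85 CPM off and 611 ± 90.7 CPM on (1.65, edgeR adjusted p = 1.85e-06). With p53R172H as well, it averaged 156 ± 1.75 CPM off and 385 ± 89.4 CPM on in COL, and 177 ± 24.6 CPM off and 385 ± 21.7 CPM on in SI. Cdkn1a thus rose in all 4 arms with BRAFV600E, and its part in the response of the mitosis genes was not tested. Its response did not differ past the threshold between BRAFp53 and BRAF (0.29 in COL and -0.54 in SI, edgeR adjusted p = 0.558 and 0.106). E2f8, an atypical E2F that represses S phase genes, changed by -0.93 in COL BRAF, -0.85 in SI BRAF, -0.89 in COL BRAFp53 and -0.71 in SI BRAFp53 on the log2 scale. Its paralog E2f7 fell in SI BRAF (-0.95, edgeR adjusted p = 0.00311) and did not pass in the other arms. In SI BRAF E2f7 had 8.94 and 11.4 CPM in off libraries. It had 6.23 CPM in on replicate 1, with Xist, and 4.26 CPM in on replicate 2.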

How the data were processed

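Paired-end RNA-seq of 24 organoid libraries was used. Per the labels and the study's methods, reads were trimmed (Trimmomatic 0.36), aligned to mm10 and counted per gene with STAR 2.5.2b (versions from the submitters' processing notes), and the authors deposited raw read counts per gene with replicates kept apart. The annotation release and the strand setting are not given in the sources used here, so reads of overlapping genes may be assigned to either. Symbols, coordinates and exon lengths were taken from GENCODE M21, which matched 45143 of 45706 identifiers.

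Counts of each tissue were scaled by TMM, filtered with filterByExpr, and fitted in 1 quasi-likelihood model over 12 libraries with a mean per genotype and state (edgeR 4.0.16, R 4.3.3). Differences between tissues were taken from a joint fit of 24 libraries. P-values were adjusted by Benjamini-Hochberg over all genes tested (18972 in COL, 16856 in SI, 19673 jointly), and genes with an adjusted p under 0.05 were called. Levels are TMM-scaled counts per library of 1e6 (CPM). The limit of detection (3 counts) was 0.0408 to 0.0638 CPM in COL and 0.0437 to 0.0774 CPM in SI and covers counting error only. Replicates differed by more than sampling noise (chi-square over degrees of freedom from 22.3 to 102). The model was tested on simulated data first.

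The alternatives were RLE size factors, library totals, no filter, at least 10 counts in every library, a log2 fold change of at least 1, DESeq2 1.42.0, limma-voom (limma 3.58.1), a replicate block, each replicate left out and only the 4 libraries of an arm. The genes described with values were 23 covering every role, up to 5 per direction and arm with the largest called change, and any called against the direction of its arm. Values of Espl1, Kif18b and Mad2l1 are given outside this rule and were chosen after they were seen. The 47 genes, the further lists and the tests were chosen with earlier results of these data known.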

Additional observations from a re-analysis of the deposited data

Results flagged for a closer look

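The response of Mybl2 differed between groups by a test of the difference itself in a pair of comparisons. In SI organoids its response was higher in BRAFp53 than in BRAF by 1.04 on the log2 scale (edgeR adjusted p = 0.0314), and with BRAFV600E alone its response was higher in COL than in SI by 1.04 (joint edgeR fit, adjusted p = 0.0236). Both rest on the SI BRAF libraries, and neither passed without SI BRAF on replicate 2, without either SI BRAF off library or with the replicate block. It was 1 gene of 47 in each comparison, against 1.93% and 3.31% of all genes, so that both counts were near the background. In the SI comparison DESeq2 called 7 of 47, against 3.32%. In COL the BRAFp53 response of Mybl2 minus its BRAF response was -0.13 (SE 0.28, edgeR adjusted p = 0.858).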

How the results depend on the processing

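Apart from a required size of change, the alternatives gave 840 values for the 70 calls of the 33 named genes, of which 742 kept direction and side of the threshold, 98 lost the threshold and 0 reversed. When a change of 1 or more on the log2 scale was also required, 9 of these 70 calls were kept and 61 lost, and of the 47 genes 8 were called in COL BRAF, 1 in COL BRAFp53 and 1 in SI BRAF, against 3.24%, 3.69% and 4.47% of all genes lower. With library totals in place of TMM, the median of COL BRAF was -0.87, and 1 gene was called in SI BRAFp53 (5.62% of all genes lower) and 12 in the SI difference of BRAFp53 and BRAF (6.44% higher). That scaling moved the median of all genes by -0.17 in COL BRAF, -0.15 in COL BRAFp53 and -0.29 in SI BRAF, to -0.18, -0.20 and -0.35, relative to which the medians of the mitosis genes were -0.68, -0.30 and -0.63, and it changed the share of all genes lower and higher to 16.3% and 7.6% in COL BRAF and 29.5% and 11.1% in SI BRAF. Without a filter, 5 genes were called in SI BRAFp53 (3.84% lower), 11 in the COL difference of BRAFp53 and BRAF (2.34% higher), 12 in the SI difference (2.66% higher) and 1 in the tissue difference of BRAFp53 (2.41% higher). With at least 10 counts in every library these were 1 in SI BRAFp53 (6.62% lower) and 5 in the SI difference (3.46% higher). DESeq2 called 2 in SI BRAFp53 (5.91% lower), 8 in the COL difference (4.32% higher), 7 in the SI difference (3.32% higher) and 2 in the tissue difference of BRAFp53 (3.61% lower), and limma-voom 1 in SI BRAFp53 (5.22% lower). With only the 4 libraries of an arm, 10 were called in COL BRAFp53 (5.99% lower) and 2 in SI BRAFp53 (5.11% lower). Same-numbered libraries did not deviate together (r of -0.059 to 0.085), so that the samples share only a number, and the replicate block gave 34 calls in COL BRAF (7.79% of all genes lower), 15 in COL BRAFp53 (14 lower, against 5.91%), 42 in SI BRAF (13.3%), 1 in SI BRAFp53 (3.95%), 0 in the SI difference (1.39% higher) and 0 in the tissue difference of BRAF (2.64% higher). With each replicate left out in turn, the calls ranged from 21 to 28 in COL BRAF (median -0.74 to -0.63), 6 to 21 in COL BRAFp53 (-0.52 to -0.15), 22 to 44 in SI BRAF (-1.02 to -0.46) and 0 to 0 in SI BRAFp53 (-0.32 to -0.12), with medians of -0.15 to 0.0206 in COL p53 and -0.0335 to 0.12 in SI p53, and from 0 to 3 in the COL difference, 0 to 38 in the SI difference and 0 to 1 in the tissue difference of BRAF. In those fits 4.38% to 5.48% of all genes were lower in COL BRAF, 3.1% to 5.14% in COL BRAFp53, 7.36% to 14.3% in SI BRAF and 1.63% to 2.67% in SI BRAFp53, and 0% to 0.69% were higher in the COL difference, 0.564% to 5.19% in the SI difference and 1.58% to 2.81% in the tissue difference of BRAF. The cause of these shifts was not tested, except that fits without a replicate hold fewer samples. The lowest count of a mitosis gene was 119, so that counting depth did not limit their detection.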
